A study of Mus musculus with 9 samples.

Results

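The genes of glycolysis and the pentose phosphate pathway were examined in RAW264.7 cells treated with LPS after transfection of siRNA. They are 38 genes, taken as those entries of the deposited expression table whose Ensembl identifier carries the listed symbol in GENCODE M21, out of 28137 identifiers in all. Aldoa had 2 identifiers, so that 39 entries were read. RAW264.7 is a mouse monocyte-macrophage leukemia line, and LPS (lipopolysaccharide, a bacterial cell wall component) was used to drive it to an inflammatory state. Of the 9 RNA-seq libraries, 3 came from cells given control siRNA (NC), 3 from cells given SFRP2 siRNA and 3 from cells given RAB6A siRNA. Per the labels, every group received 60 nM siRNA for 6 h, complete medium for 12 h and LPS at 100 ng/ml for 24 h, so no group was without siRNA or without LPS. Each group is a single cell line, and the labels do not say whether the 3 libraries of a group came from separate cultures or received different siRNAs. The p-values therefore measure the spread between these libraries, which may be technical.

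Glycolysis splits glucose into pyruvate in the cytosol, and lactate dehydrogenase turns pyruvate into lactate, which monocarboxylate transporters carry across the membrane. The pentose phosphate pathway leaves glycolysis after the first step: its oxidative branch makes NADPH and a pentose phosphate, and its non-oxidative branch returns sugar phosphates to glycolysis. Macrophages given LPS are known for a high use of glucose and lactate release, with Hif1a, a hypoxia-inducible transcription factor, among the regulators, and with NADPH used for the respiratory burst and for nitric oxide.

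Values are FPKM, that is, fragments scaled to exon length and to the size of the library. The length counts all exonic bases of a gene, and it exceeded that of the longest transcript with a RefSeq mRNA by unlike factors. It was 13401 against 4145 bases for Pfkp, 8532 against 4278 for Hk1 and 5969 against 5513 for Hk2. Levels of different genes, and their order, therefore depend on the annotation. Depth ranged from 41608379 to 47149258 reads in the NC libraries, from 34743304 to 40562562 in the SFRP2 siRNA libraries and from 32758729 to 37833882 in the RAB6A siRNA libraries. Sfrp2 was covered by 2 to 4 reads in every library, with 0.0223, 0.0197 and 0.0218 FPKM in NC and 0.0458, 0.0478 and 0.0267 FPKM in the SFRP2 siRNA libraries, so the targeted transcript gives no check of that group. Rab6a measured 24.3, 27.3 and 25.5 FPKM in NC and 21.2, 20.7 and 20.4 FPKM in the RAB6A siRNA libraries, a log2 fold change of -0.31 (SE 0.06, adjusted p = 0.00240, limma with Benjamini-Hochberg adjustment). In that comparison 36.5% of all genes tested were called lower, so this modest fall does not single out the target. Of 10 macrophage markers, 9 were above a mean of 0.5 FPKM in each group, and Mrc1 was the exception at a mean of at most 0.0738 FPKM. The 5 T and B cell markers summed to at most 0.345 FPKM in any library and the 10 fibroblast, endothelial and epithelial markers to at most 3.66 FPKM. The 10 most abundant genes held 18.8 to 19.4% of the reads in the RAB6A siRNA libraries against 13.9 to 15.7% in NC and 14.7 to 17.2% in the SFRP2 siRNA libraries.

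In the NC libraries the members covered a wide range of levels, as the plot of FPKM by library shows. Pkm, which encodes the pyruvate kinase of most tissues and of macrophages, was the highest at 1000.4, 906 and 1022 FPKM (976 ± 61.7, mean ± SD, n = 3), followed by Pgk1, the phosphoglycerate kinase, at 486 ± 14.0 FPKM. Of the 38 genes, 10 had a mean of at least 100 FPKM in NC, 17 lay between 10 and 100, 8 between 1 and 10, and 3 (Pfkfb2, Ldhb and Pdk2) below 1. When the genes were ordered by their NC mean, 19 of the 37 neighboring pairs overlapped between libraries, so their order is not set by these data. The first overlapping run was Ldha at 215 ± 6.18, Pgam1 at 206 ± 13.6, Aldoa at 194 ± 12.5 and Eno1 at 193 ± 10.8 FPKM. The second Aldoa identifier (ENSMUSG00000114515, chr7:126800790-126809108) was listed at 0.847 ± 0.155 FPKM in NC and is not counted with the main one.

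**Figure D1:**
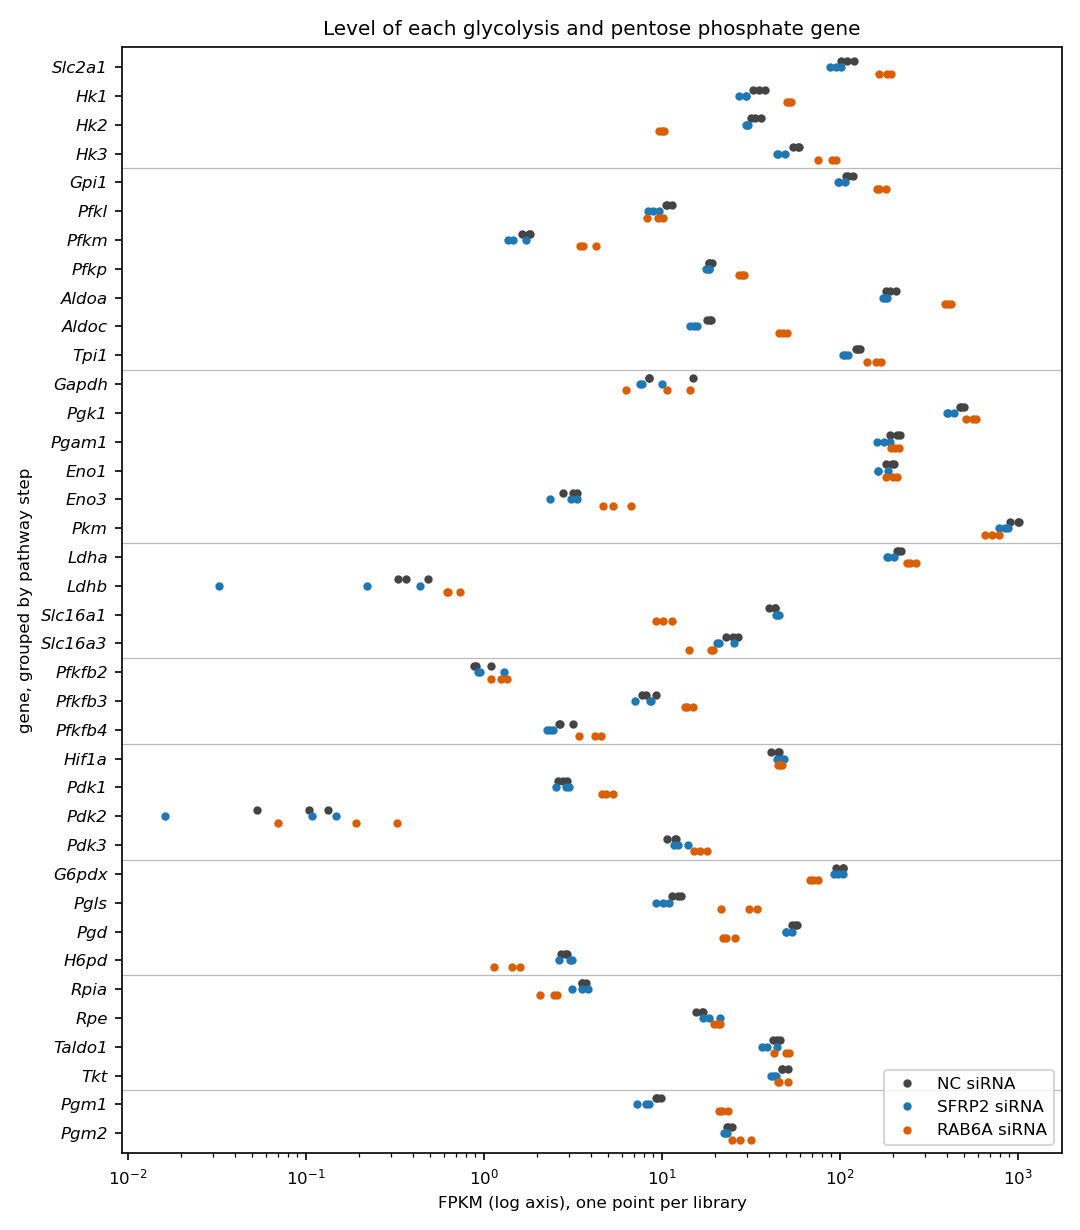
FPKM of the 38 genes in each of the 9 libraries on a log axis, grouped by role, with 1 point per library and a color per group. Pkm and Pgk1 lie highest, and Pdk2 and Ldhb lie below 1 FPKM in every library.

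Gapdh, a glycolytic dehydrogenase and a common reference gene, was listed at only 8.46, 8.54 and 14.9 FPKM in NC, below most genes of the lower pathway. The deposited value counts 4133 exonic bases, and 82.5% of the 50-base windows of its transcript of 1420 bases were also found in transcripts of other genes, 213 of them pseudogenes. The same share was 72.2% for Eno1, 68.0% for Pgk1, 41.5% for Pgam1, 40.9% for Pfkfb2, 34.4% for Pkm, 27.0% for Ldhb and 25.3% for Gpi1. It was 19.1% for Rpe, 17.1% for Pfkp, 16.6% for Ldha, 15.0% for Pgm1, 13.5% for Aldoa, 12.4% for Taldo1 and 10.7% for G6pdx, and at most 7.51% (Tpi1) for every other member. Levels and changes of these genes are uncertain, since how reads shared with such copies were counted is not given in the sources used here. No shared window was found for Hk2, Hk3, Slc16a1, Slc16a3, Aldoc, Pgls, Pgd and H6pd. The same held for Pfkm, Eno3, Pfkfb4, Pdk1, Pdk2, Pdk3, Rpia, Tkt, Pgm2 and the second Aldoa identifier.

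The comparison of RAB6A siRNA with NC asked how the pathway differed after RAB6A siRNA. Members moved in both directions. The glucose transporter Slc2a1, both aldolases and most enzymes of upper glycolysis were higher, while Hk2, the monocarboxylate transporters and the NADPH-forming enzymes were lower. Of 38 identifiers tested, 20 rose and 9 fell (limma with Benjamini-Hochberg adjustment, adjusted p under 0.05), where 37.6% of all 12712 genes tested rose and 36.5% fell. Counting only differentially expressed genes (DEGs, which also need a log2 fold change above 1 or below -1), 5 members were higher against a background of 17.3% and 3 were lower against 12.8%. In 22 members all 3 RAB6A siRNA libraries lay above all 3 NC libraries (39.2% of all genes), and in 9 they lay below (38.2%). The median log2 fold change of the members was 0.27, and that of all genes tested was 0.03. How far the members' counts differ from these shares was not tested. In bulk RNA, fewer cells of a kind and less RNA per cell cannot be told apart. Of the 9 macrophage markers tested in the same libraries, Lyz2 (log2 fold change -2.03), Csf1r (-1.44) and Spi1 (-1.05) fell and Fcgr3 rose (0.61). Cybb (-0.22), Cd68 (-0.14), Adgre1 (-0.00029), Itgam (0.09) and Cd14 (0.21) did not pass the test, and the median of the 9 was -0.14. The 10 macrophage markers summed to 4096 to 4225 FPKM against 4666 to 5127 in NC, and their part in the results below was not tested.

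**Figure D2:**
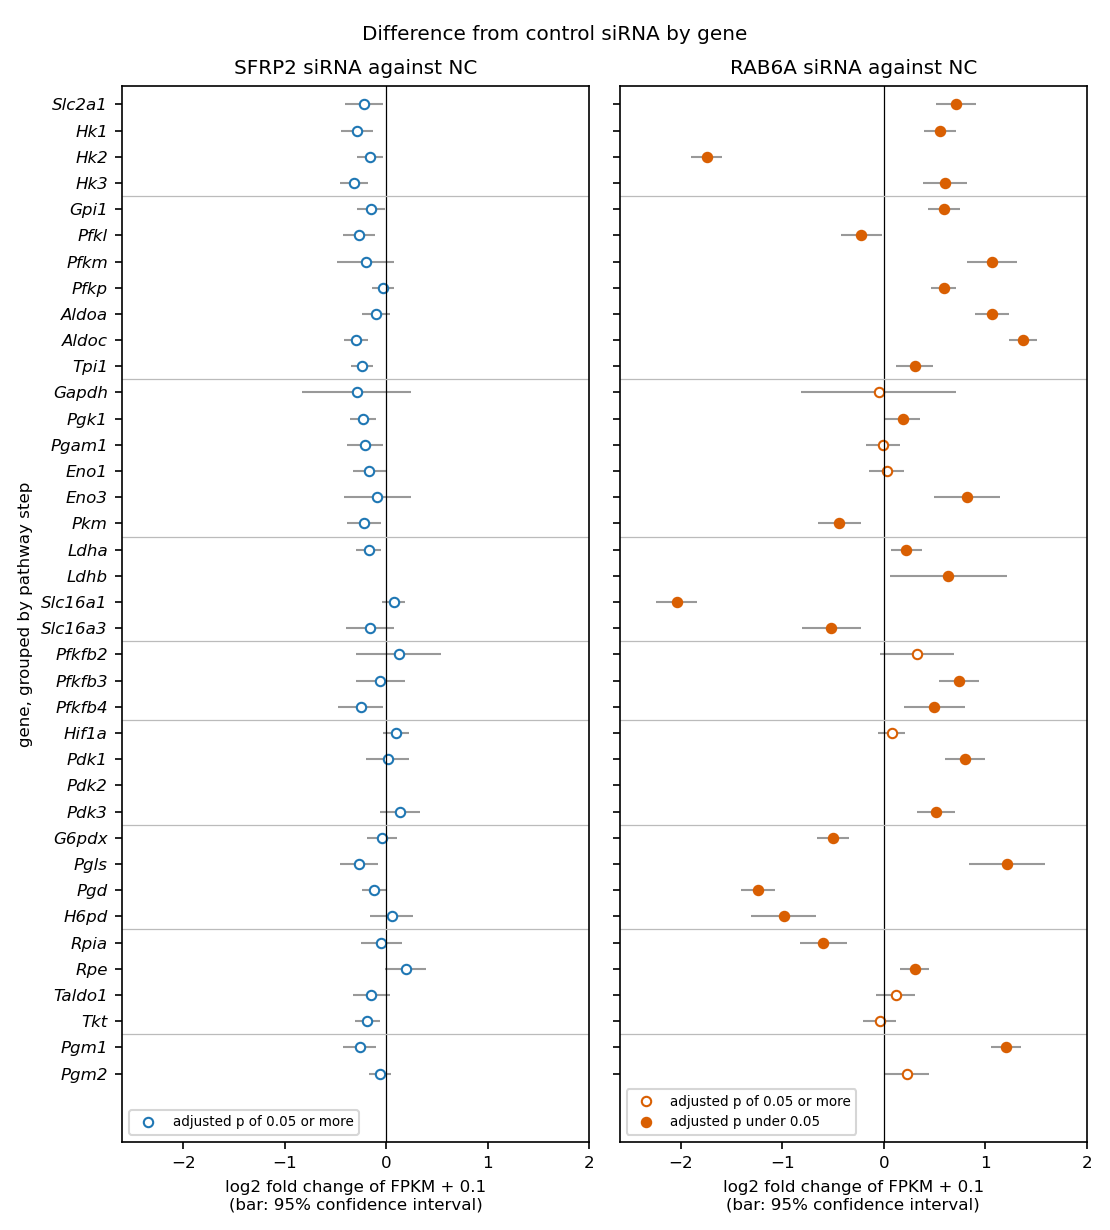
Log2 fold change against NC of each gene for RAB6A siRNA and SFRP2 siRNA, with the 95% confidence interval of limma and genes grouped by role. With RAB6A siRNA the values run from -2.04 (Slc16a1) to 1.37 (Aldoc), while with SFRP2 siRNA they run from -0.32 (Hk3) to 0.19 (Rpe). Filled points passed the test, Pdk2 has no point in either panel and Ldhb none for SFRP2 siRNA, and the second Aldoa identifier is not plotted.

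Glucose uptake and its first phosphorylation split by isozyme. Slc2a1, the GLUT1 glucose transporter, measured 119.9, 101 and 111 FPKM in NC and 184, 194 and 167 FPKM with RAB6A siRNA. All 3 RAB6A siRNA libraries were higher, and Slc2a1 rose by 0.71 on the log2 scale (SE 0.08, adjusted p = 0.000165, limma). Hk2 (chr6:82725025-82774454), the hexokinase that LPS and hypoxia induce, measured 36.0, 31.7 and 33.7 FPKM in NC and 9.68, 10.3 and 10.1 FPKM with RAB6A siRNA. Here every RAB6A siRNA library was far below every NC library, with a log2 fold change of -1.74 (SE 0.07, adjusted p = 1.41e-06, limma), or 3.34-fold lower. Hk1, the hexokinase of most cells, rose from 35.4 ± 2.65 to 52.1 ± 1.47 FPKM (log2 fold change 0.56), and Hk3, the hexokinase of myeloid cells, from 57.5 ± 2.53 to 87.7 ± 10.4 FPKM (0.60).

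Of 8 identifiers of upper glycolysis tested, 6 were called higher and 1 lower, where 37.6% of all genes tested rose and 36.5% fell. Aldoc (chr11:78322968-78327781), the brain-type aldolase, measured 18.6, 18.1 and 18.9 FPKM in NC and 47.8, 50.8 and 45.9 FPKM with RAB6A siRNA, the largest rise of any member, with a log2 fold change of 1.37 (SE 0.06, adjusted p = 1.86e-06, limma). Aldoa (chr7:126795234-126800751), the far more abundant aldolase, rose from 182, 193 and 207 to 389, 424 and 406 FPKM, a log2 fold change of 1.07 (SE 0.07, adjusted p = 9.25e-06, limma) that became 0.64 with quantile normalization. Both aldolases had no overlap between the groups. Pfkm, the muscle-type phosphofructokinase, was low at 1.82, 1.80 and 1.65 FPKM in NC and 3.49, 3.60 and 4.28 FPKM with RAB6A siRNA, and rose by 1.06 on the log2 scale (SE 0.11, adjusted p = 6.39e-05, limma). Pfkp, the main phosphofructokinase here, rose from 18.7 ± 0.523 to 28.2 ± 0.885 FPKM (log2 fold change 0.59). Gpi1, which turns glucose phosphate into fructose phosphate, rose by 0.59 and the triose phosphate isomerase Tpi1 by 0.31 on the log2 scale, although Tpi1 missed the threshold with quantile normalization. Pfkl, the liver-type phosphofructokinase, went the other way, from 10.8, 10.5 and 11.4 to 9.60, 10.2 and 8.31 FPKM, a log2 fold change of -0.22 whose adjusted p of 0.0499 (limma) passed narrowly and missed the threshold under 10 of 18 alternatives.

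In lower glycolysis 3 of 6 genes passed the test, 2 upward and 1 downward, where 37.6% of all genes tested rose and 36.5% fell. Eno3, the muscle-type enolase, rose from 3.16, 2.79 and 3.33 to 5.33, 6.76 and 4.70 FPKM, a log2 fold change of 0.82 (SE 0.14, adjusted p = 0.00107, limma). Eno1, the main enolase, gave 193 ± 10.8 FPKM in NC and 197 ± 13.3 FPKM with RAB6A siRNA (log2 fold change 0.03, 95% confidence interval -0.14 to 0.20). Pgam1, the phosphoglycerate mutase, gave 206 ± 13.6 and 205 ± 9.82 FPKM (-0.01, interval -0.17 to 0.16). For both genes the groups overlapped and the test did not pass, although with quantile normalization both were called lower, at -0.20 for Eno1 (adjusted p = 0.0478, limma) and -0.28 for Pgam1 (adjusted p = 0.00598). Gapdh was listed at 10.7, 6.31 and 14.4 FPKM with RAB6A siRNA, as wide a spread as in NC, and its log2 fold change of -0.05 (SE 0.33, adjusted p = 0.893, limma) has an interval from -0.82 to 0.71, so a change of either direction was not detectable. Pgk1 rose by 0.19 on the log2 scale (adjusted p = 0.0470, limma), but with quantile normalization it was called in the opposite direction, at -0.36 (adjusted p = 0.00362), and it missed the threshold under 9 of 18 alternatives. Pkm, the last enzyme of the pathway, fell in every library, from 1000.4, 906 and 1022 to 659.6, 784 and 721 FPKM, a log2 fold change of -0.44 (SE 0.09, adjusted p = 0.00302, limma) that became -0.83 with quantile normalization.

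Of the genes for lactate, both transporters fell, and both dehydrogenase subunits were called higher by a narrower margin. Slc16a1 (chr3:104638668-104658462), which encodes the lactate and pyruvate transporter MCT1, measured 43.5, 43.6 and 40.3 FPKM in NC and 9.24, 10.2 and 11.4 FPKM with RAB6A siRNA. This was the largest fall of any member, without overlap, at a log2 fold change of -2.04 (SE 0.09, adjusted p = 1.83e-06, limma), or 4.11-fold lower. Slc16a3, the MCT4 transporter that exports lactate from glycolytic cells, fell less, from 26.8, 22.9 and 25.1 to 19.0, 19.4 and 14.2 FPKM (log2 fold change -0.52, SE 0.13, adjusted p = 0.00676, limma). Ldha, the dehydrogenase subunit that favors lactate formation, rose from 214, 209.8 and 222 to 238, 268 and 247 FPKM, a log2 fold change of 0.22 (adjusted p = 0.0164, limma) that turned to -0.12 with quantile normalization. Ldhb, the other subunit, stayed below 1 FPKM, with 2 to 44 reads per library, and its log2 fold change of 0.64 (adjusted p = 0.0460, limma) missed the threshold under 12 of 16 alternatives.

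The regulators that set the pace of glycolysis or the fate of pyruvate were higher where they passed the test. Pfkfb3, which makes the fructose bisphosphate that activates phosphofructokinase, measured 9.36, 7.79 and 8.13 FPKM in NC and 13.8, 15.0 and 13.6 FPKM with RAB6A siRNA. It rose by 0.75 on the log2 scale (SE 0.08, adjusted p = 0.000125, limma) without overlap, and its relative Pfkfb4 rose by 0.50. Pdk1, a kinase that keeps pyruvate dehydrogenase off, rose from 2.93, 2.80 and 2.63 to 5.31, 4.86 and 4.65 FPKM (log2 fold change 0.80, SE 0.08, adjusted p = 8.35e-05, limma). Pdk3, the more abundant kinase of that kind, rose by 0.51, while Pdk2 lay below the filter of a mean of 0.5 FPKM and was not tested. Hif1a itself gave 45.4, 44.8 and 41.3 FPKM in NC and 46.4, 45.0 and 47.4 FPKM with RAB6A siRNA, which overlapped with a log2 fold change of 0.08 (SE 0.06, adjusted p = 0.256, limma). It was called higher with quantile normalization (0.24, adjusted p = 0.00838) and with the GC and length correction (0.21, adjusted p = 0.00220, or 0.0103 with a replicate block).

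In the oxidative pentose phosphate branch the 3 dehydrogenases fell and the lactonase rose, as the plot of the pentose phosphate genes shows. G6pdx, the entry enzyme that makes the first NADPH, measured 94.995, 103.9 and 105 FPKM in NC and 68.2, 71.0 and 75.6 FPKM with RAB6A siRNA. All RAB6A siRNA libraries were lower, with a log2 fold change of -0.50 (SE 0.07, adjusted p = 0.000286, limma). Pgd (chr4:149149991-149166771), the phosphogluconate dehydrogenase that makes the second NADPH, fell further, from 57.3, 54.2 and 56.2 to 22.9, 25.9 and 22.2 FPKM (log2 fold change -1.24, SE 0.07, adjusted p = 5.04e-06, limma). H6pd, which carries out the first steps inside the endoplasmic reticulum, fell from 2.86, 2.71 and 2.94 to 1.44, 1.61 and 1.14 FPKM (log2 fold change -0.99, SE 0.14, adjusted p = 0.000354, limma). Between these steps acts the lactonase Pgls (chr8:71592176-71601092), which measured 12.9, 11.5 and 12.4 FPKM in NC and 31.1, 34.6 and 21.7 FPKM with RAB6A siRNA. It rose by 1.21 on the log2 scale (SE 0.16, adjusted p = 0.000295, limma), with the largest SE of the 5 DEGs that rose.

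**Figure D3:**
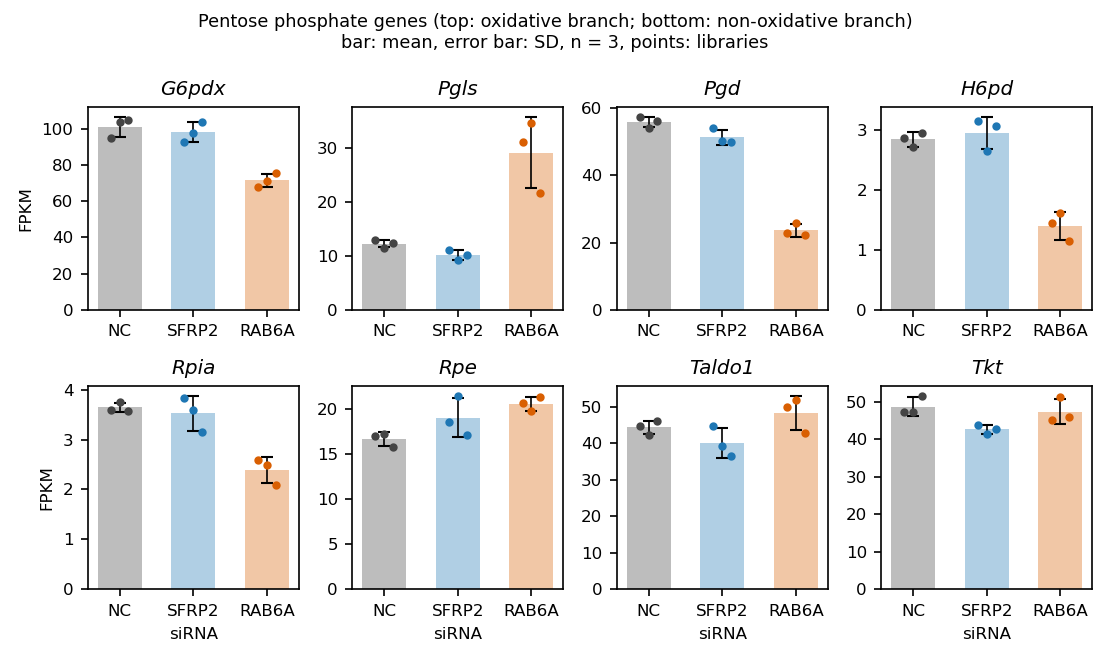
FPKM of the pentose phosphate genes in each library, 1 panel per gene, with the mean of each group as a bar, its SD as the error bar (n = 3) and the libraries as points. G6pdx, Pgd, H6pd and Rpia lie lower and Pgls and Rpe lie higher in the RAB6A siRNA libraries than in NC, while Taldo1 and Tkt overlap.

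The non-oxidative branch showed a smaller split. Rpia, which turns ribulose phosphate into the ribose phosphate of nucleotides, fell from 3.59, 3.75 and 3.58 to 2.59, 2.48 and 2.08 FPKM, a log2 fold change of -0.60 (SE 0.10, adjusted p = 0.00104, limma) that became -0.38 after correction for GC content and length. Rpe, the epimerase that draws on the same substrate, rose from 16.6 ± 0.784 to 20.5 ± 0.788 FPKM (log2 fold change 0.31). For transketolase (Tkt) and transaldolase (Taldo1), which link the pathway back to glycolysis, the log2 fold changes were -0.04 (95% interval -0.20 to 0.12) and 0.12 (-0.07 to 0.31), and neither passed the test, although Taldo1 was called higher with quantile normalization (0.27) and without RAB6A siRNA replicate 3 (0.20). Pgm1 (chr4:99929414-99987294), the phosphoglucomutase that joins glucose phosphate to glycogen, measured 9.45, 9.32 and 9.87 FPKM in NC and 21.8, 23.7 and 21.0 FPKM with RAB6A siRNA, without overlap. It rose by 1.21 on the log2 scale (SE 0.07, adjusted p = 4.25e-06, limma), whereas Pgm2, which acts on pentose phosphates, gave 0.23 and an adjusted p of 0.0510 that did not pass, but passed under 7 of 18 alternatives.

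The 250 bases before the RefSeq start site are printed for the 3 members with the lowest and the 3 with the highest log2 fold change with RAB6A siRNA, so that the promoters of members that moved in opposite directions can be read side by side. Coordinates are on GRCm38.p6, and each sequence runs 5′ to 3′ on the strand of its gene. Capitals mark ACGTG, a form of the core that HIF binds, or its reverse complement CACGT. They also mark the palindrome CACGTG (the E-box of MYC and USF factors), which holds ACGTG on both strands. The other form of the HIF core, GCGTG, was not searched and is not marked.
Slc16a1 (chr3:104638414-104638663, + strand): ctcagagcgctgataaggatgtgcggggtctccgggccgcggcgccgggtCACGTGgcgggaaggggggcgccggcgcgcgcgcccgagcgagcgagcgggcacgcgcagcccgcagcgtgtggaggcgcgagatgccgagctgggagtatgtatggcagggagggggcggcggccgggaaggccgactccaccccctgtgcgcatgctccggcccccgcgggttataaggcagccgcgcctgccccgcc
Hk2 (chr6:82774455-82774704, - strand): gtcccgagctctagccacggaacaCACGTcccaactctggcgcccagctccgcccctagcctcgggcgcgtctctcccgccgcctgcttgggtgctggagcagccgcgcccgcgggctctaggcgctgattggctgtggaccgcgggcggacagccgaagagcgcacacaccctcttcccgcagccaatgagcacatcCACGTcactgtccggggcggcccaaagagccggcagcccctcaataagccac
Pgd (chr4:149166706-149166955, - strand): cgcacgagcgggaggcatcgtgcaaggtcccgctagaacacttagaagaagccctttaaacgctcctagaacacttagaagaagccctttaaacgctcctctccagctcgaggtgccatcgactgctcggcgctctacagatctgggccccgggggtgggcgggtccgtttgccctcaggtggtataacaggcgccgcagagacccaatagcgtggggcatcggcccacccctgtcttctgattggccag
Aldoc (chr11:78322823-78323072, + strand): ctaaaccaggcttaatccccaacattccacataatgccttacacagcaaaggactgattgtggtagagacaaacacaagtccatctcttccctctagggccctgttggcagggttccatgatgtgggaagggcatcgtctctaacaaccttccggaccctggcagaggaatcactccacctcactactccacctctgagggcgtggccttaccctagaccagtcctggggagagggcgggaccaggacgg
Pgls (chr8:71591934-71592183, + strand): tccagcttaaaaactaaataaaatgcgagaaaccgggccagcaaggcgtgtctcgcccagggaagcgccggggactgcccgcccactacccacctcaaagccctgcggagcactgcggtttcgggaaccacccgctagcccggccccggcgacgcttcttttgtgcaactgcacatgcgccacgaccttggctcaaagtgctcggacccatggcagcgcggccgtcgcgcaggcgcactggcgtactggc
Pgm1 (chr4:99929201-99929450, + strand): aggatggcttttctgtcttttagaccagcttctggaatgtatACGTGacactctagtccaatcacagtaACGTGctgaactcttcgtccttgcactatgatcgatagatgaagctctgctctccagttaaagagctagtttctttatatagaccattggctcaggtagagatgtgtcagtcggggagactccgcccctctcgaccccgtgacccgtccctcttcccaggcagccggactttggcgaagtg

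Among these windows, Slc16a1 held a CACGTG starting 200 bases upstream. Hk2 held ACGTG at 226 and 52 bases upstream and Pgm1 at 208 and 181 bases upstream, while no ACGTG stood in the windows of Pgd, Aldoc and Pgls. The unsearched GCGTG can be read in those of Pgd, Aldoc, Pgls and Slc16a1, so the marks do not show which windows lack a HIF core. A match to ACGTG was thus present in members that fell and in a member that rose. Searched on both strands, ACGTG was found in 22 of the 55 listed promoters of the members (40.0%), and in 16.6% of 32851 promoters of all genes. CACGTG was found in 7 of the 55 (12.7%) and in 6.02% of all. The members with ACGTG numbered 18 of 38, among them Slc2a1, Ldha, Pgk1, Pkm and Aldoa. These are matches of letters in a window and no measure of binding. The promoters of the members and of all genes were not matched for GC content, on which the frequency of such a motif can depend.

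The shares of isozymes within a family show how the composition differed, independent of how the family as a whole moved. Shares were taken per library from FPKM, so their size also depends on the exonic lengths of the genes. Hk2 held 27.7, 26.6 and 25.7% of the FPKM of the 3 hexokinases in NC (26.7 ± 0.998%, mean ± SD, n = 3) and 6.39, 6.47 and 7.29% with RAB6A siRNA (6.72 ± 0.501%). Hk3 went from 45.4 ± 0.424% to 58.4 ± 2.89% and Hk1 from 27.9 ± 0.968% to 34.9 ± 2.39%. Among the phosphofructokinases, Pfkl went from 34.7 ± 0.482% to 22.7 ± 2.35%, Pfkp from 59.6 ± 0.193% to 68.2 ± 1.39% and Pfkm from 5.61 ± 0.451% to 9.16 ± 0.962%. Of the FPKM of both lactate transporters, Slc16a1 held 61.9, 65.5 and 61.6% in NC and 32.7, 34.4 and 44.5% with RAB6A siRNA, so that Slc16a3 was the larger in 3 of 3 RAB6A siRNA libraries and the smaller in 3 of 3 NC libraries. Pgm1 went from 28.6 ± 1.11% to 44.2 ± 3.87% of both phosphoglucomutases. Aldoc, which had the larger fold change of the aldolases, held 10.6 ± 0.399% of their FPKM, against 8.74 ± 0.488% in NC. With 3 libraries against 3, the exact two-sided permutation test cannot go below p = 0.1, which each of these shares reached, as did 18 of the 22 shares tested with RAB6A siRNA in all. That p means only that the groups did not overlap. By FPKM, 39.2% of all genes lay above NC without overlap with RAB6A siRNA and 38.2% below. The same p was also reached by 8 of 22 shares with SFRP2 siRNA, where the differences were smaller. There, 10.9% of all genes lay above NC without overlap and 13.9% below. Hk2 held 27.7, 29.2 and 29.1% with SFRP2 siRNA, the lowest of them barely above the highest NC library. Pfkl held 31.4 ± 1.56%, Pfkp 63.4 ± 1.82%, Hk3 43.8 ± 1.35%, Aldoc 7.73 ± 0.412% and Pgm1 25.9 ± 1.85%. Over the 44 shares tested in both comparisons, the smallest Benjamini-Hochberg adjusted value was 0.169. Shares of a family are not independent. Where a family has only a pair of genes, such as Aldoa and Aldoc, their shares mirror each other with the same p, and both are counted.

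**Figure D4:**
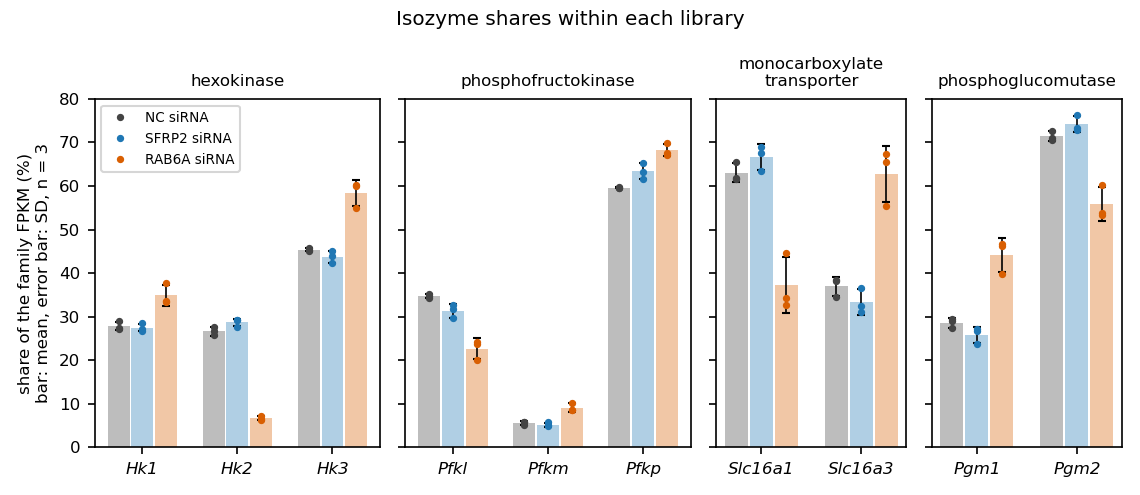
Share of each isozyme in the FPKM of its family (%), with the mean of each group as a bar, its SD as the error bar (n = 3) and the libraries as points. The Hk2 share falls from 25.7 to 27.7% in NC to between 6.39 and 7.29% with RAB6A siRNA, and lies between 27.7 and 29.2% with SFRP2 siRNA.

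The comparison of SFRP2 siRNA with NC asked whether the targeting of SFRP2, a secreted modulator of Wnt signaling, changed the pathway in inflammatory macrophages. The log2 fold changes were small: 30 of the 37 identifiers tested were negative and 7 positive, with a median of -0.16 against -0.01 for all genes tested. No member passed an adjusted p of 0.05 in limma, and neither did any of the 12017 genes (0%), with 0.163 as the smallest adjusted p among members. At an unadjusted p under 0.05, 18 members were lower and 0 higher, where 10.7% of all genes were lower and 7.73% higher. In 15 members all 3 SFRP2 siRNA libraries lay below all 3 NC libraries (13.9% of all genes), and in 1, Slc16a1, above (10.9%). With voom on recovered reads, 1 member passed, Hk3 (log2 fold change -0.32, adjusted p = 0.0442), where 7 genes in all were higher and 35 lower. The median of the members was -0.10 with quantile normalization, with 11 members at an unadjusted p under 0.05, and also -0.10 after a correction for GC content and length, with 12. All genes at that p numbered 2332 with quantile normalization and 1718 with the correction. Leaving out a library gave 10 such members without SFRP2 siRNA replicate 2, 11 without NC replicate 3 and 12 without NC replicate 1. It gave 14 without SFRP2 siRNA replicate 3, 18 without NC replicate 2 and 21 without SFRP2 siRNA replicate 1. All genes at that p numbered 1349, 1271, 1965, 2330, 2009 and 2170 in the same order, against 2220 in the main fit. With voom there were 19 such members, and with a replicate block 23, where all genes at that p numbered 2489 and 2988. Both comparisons use the same NC libraries, so they are not independent.

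Of the members with the smallest p, Aldoc measured 18.6, 18.1 and 18.9 FPKM in NC and 15.7, 15.1 and 14.4 FPKM with SFRP2 siRNA (log2 fold change -0.30, SE 0.05, adjusted p = 0.163, limma). Hk3 measured 58.6, 54.6 and 59.3 FPKM in NC and 49.1, 44.8 and 44.3 FPKM with SFRP2 siRNA (log2 fold change -0.32, SE 0.06, adjusted p = 0.163, limma). Both lay below NC in every SFRP2 siRNA library, and both rose with RAB6A siRNA. Tpi1 gave 127, 124 and 131 against 112, 105 and 107 FPKM (-0.24, SE 0.05, adjusted p = 0.165, limma). Pgk1 gave 482, 474 and 502 against 437, 408 and 399 FPKM (-0.23, SE 0.05, adjusted p = 0.178, limma), again without overlap. All 4 genes of glucose uptake and phosphorylation had an unadjusted p under 0.05, as had 4 of 8 identifiers of upper glycolysis and 4 of 6 of lower glycolysis, all lower, beside the 10.7% of all genes that were lower at that p. The difference between these groups and all genes was not tested. Slc2a1 was at 102, 95.2 and 88.2 FPKM, a log2 fold change of -0.22 (SE 0.08, adjusted p = 0.2198, limma). Hk2, which fell with RAB6A siRNA, was at 30.2, 29.8 and 30.5 FPKM with SFRP2 siRNA (-0.16, 95% interval -0.29 to -0.03).

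None of the 7 positive values had an unadjusted p under 0.05. Rpe was at 18.5, 21.4 and 17.1 FPKM with SFRP2 siRNA and 16.9, 17.1 and 15.7 in NC (log2 fold change 0.19, SE 0.09, adjusted p = 0.295, limma). Hif1a was at 47.4, 48.5 and 44.7 FPKM (0.10, SE 0.06, adjusted p = 0.377, limma) and Pdk3 at 12.4, 14.1 and 11.7 FPKM (0.13, SE 0.08, adjusted p = 0.417, limma). Slc16a1 was at 44.3, 44.0 and 45.4 FPKM, above all NC libraries by a small margin (0.07, SE 0.05, adjusted p = 0.444, limma). In the oxidative pentose phosphate branch, G6pdx was at 92.8, 97.9 and 104 FPKM (-0.04, SE 0.06, adjusted p = 0.721, limma) and overlapped with NC. Pgd gave -0.12 with a 95% interval of -0.24 to -0.01, Pgls -0.27 (-0.46 to -0.08) and H6pd 0.05 (-0.16 to 0.26). Gapdh gave 7.58, 7.72 and 9.99 FPKM (-0.29, SE 0.23, adjusted p = 0.507, limma), and Ldhb and Pdk2 lay below the filter.

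GC content moved with these values. The members had a median GC of 52.6% against 49.2% for all genes tested, and in the SFRP2 siRNA comparison the genes tested had a median of 0.10 on the log2 scale in the lowest tercile of GC, -0.02 in the middle and -0.10 in the highest. The members gave 0.11 (4 members), -0.12 (13) and -0.22 (20) in the same terciles. After the correction for GC content and length, the median of the members moved from -0.16 to -0.10, so the size of the shift depends on that correction. The members at an unadjusted p under 0.05 went from 18 to 12, and all genes at that p from 2220 to 1718. With RAB6A siRNA the medians of all genes were -0.05, -0.04 and 0.13, and those of the members 0.19, 0.51 and 0.12, the last over 21 members.

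**Figure D5:**
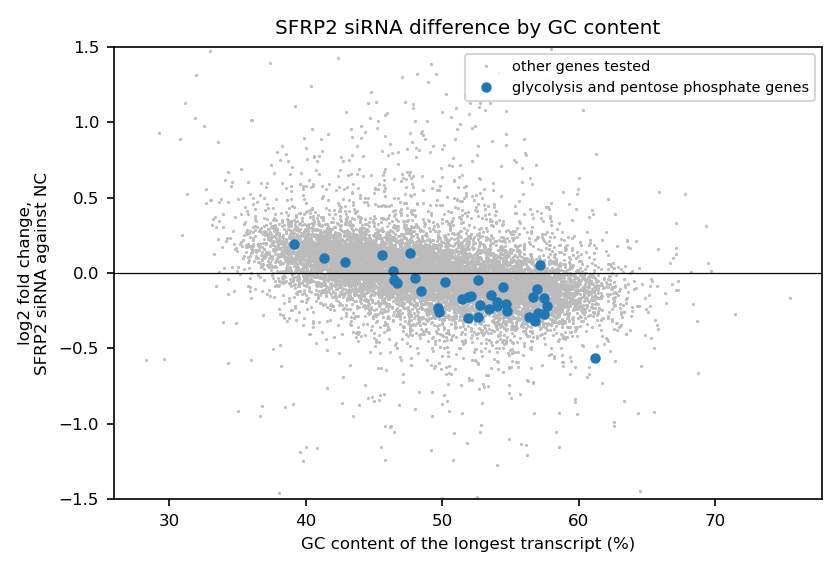
Log2 fold change of SFRP2 siRNA against NC by GC content (%) of the longest transcript, with the members as large points and the other genes tested as small gray points. The lowest member is the second Aldoa identifier at -0.57, and 42 other genes fall outside the vertical axis.

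Other genes of the same pathways, from lists written for this purpose with earlier results of these data known, were read in the same way. How far the counts of these lists differ from the shares of all genes was not tested. With RAB6A siRNA, 25 of 34 other genes of glycolysis, gluconeogenesis and pyruvate were tested, and 8 rose and 10 fell (median -0.15), where 37.6% of all genes rose and 36.5% fell. Eno2, the neuron-type enolase, had the largest change, from 6.88, 6.56 and 7.43 to 50.2, 42.8 and 40.8 FPKM (log2 fold change 2.66, SE 0.09, adjusted p = 1.12e-06, limma). It followed the direction of Eno3 and reached a higher level. Slc2a8, the intracellular glucose transporter GLUT8, rose from 0.583 ± 0.102 to 2.96 ± 0.318 FPKM (2.17), and Tigar, a phosphatase that lowers fructose bisphosphate, fell from 12.1 ± 0.302 to 3.81 ± 0.106 FPKM (-1.64). The other glucose transporters of that list were called lower, Slc2a3 at -0.69 (adjusted p = 0.00165, limma) and Slc2a6 at -0.24 (adjusted p = 0.0461, limma). Of 8 of 9 other pentose phosphate and ribose genes tested, 3 rose and 3 fell against the same shares (median -0.22), with Shpk, a sedoheptulose kinase, rising from 0.490 ± 0.116 to 1.79 ± 0.239 FPKM (1.69). Of 16 of 20 HIF pathway genes outside glycolysis tested, 12 rose and 2 fell against the same shares (median 0.89), 7 and 1 of them DEGs, where 17.3% and 12.8% of all genes were. The largest were Ddit4, an inhibitor of mTORC1, from 2.03, 2.27 and 2.87 to 12.5, 15.5 and 14.7 FPKM (2.54, SE 0.14, adjusted p = 4.26e-06, limma), Adm, which encodes the vasodilator adrenomedullin (2.10), Ndrg1 (1.53) and the mitophagy receptor Bnip3l (1.43). With SFRP2 siRNA no gene of these lists passed an adjusted p of 0.05 in limma, and 6 of 25, 0 of 7 and 3 of 16 had an unadjusted p under 0.05, where 10.7% of all genes were lower and 7.73% higher at that p. The medians of the lists were -0.01, 0.01 and -0.06, against -0.16 for the members and -0.01 for all genes. The macrophage markers had a median of -0.15, with 7 of 9 negative and 3 of 9 at an unadjusted p under 0.05, and their part in the members' values was not tested.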

How the data were processed

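The 9 libraries were grouped by the treatment label (NC, SFRP2 or RAB6A siRNA, 3 each). The authors deposited FPKM per Ensembl gene, and their processing notes name HISAT2, featureCounts and Subread. Versions, genome build and annotation are not given in the sources used here. Of 28137 identifiers, 27533 were named from GENCODE M21 (GRCm38), and 604 were not. Reads were recovered from the FPKM steps and exonic length: for 27084 genes (98.4%) all 9 values were whole within 0.03 of a read. The recovery was tested on simulated data, as was the fit. The recovered reads served for depth and for voom. Strandedness is not given, so antisense overlaps cannot be told apart.

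Each siRNA group was compared with NC in limma 3.58.1 (R 4.3.3, eBayes with an intensity trend), fitted to log2(FPKM + 0.1), over genes with a mean of at least 0.5 FPKM in the 6 libraries, with Benjamini-Hochberg adjustment over all of them. Fold changes are on that scale, which understates those of low genes. The paper's methods name DESeq2, which needs counts, while the deposited values are FPKM. DESeq2 was not run on the recovered reads. With SFRP2 siRNA in inflammatory RAW264.7 cells the paper reports DEGs, some of them in glycolysis and the pentose phosphate pathway. No gene passed in the main limma fit of that comparison here, and the cause of this difference was not tested. Separately from RNA, the paper measured extracellular flux. It reports that glycolysis, its capacity and its reserve were lower with SFRP2 siRNA in inflammatory RAW264.7 cells. RNA levels do not measure that flux. Shares of isozymes were compared with exact permutation tests. Python 3.11.15, numpy 2.4.6, pandas 2.3.3, scipy 1.17.1 and matplotlib 3.10.9 were used for the rest. Promoters were read from a RefSeq table (GRCm38.p6).

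Members and lists were chosen with earlier results of these data known. Given in full were the 8 highest and 8 lowest called log2 fold changes with RAB6A siRNA, the 4 smallest p in each direction with SFRP2 siRNA, and Slc2a1, Hif1a, G6pdx and Gapdh. Apart from the macrophage markers, Slc2a3 and Slc2a6, genes of other lists were named only past an absolute log2 fold change of 1 with an adjusted p under 0.05. At most 4 per list were named by that rule. Alternatives were pseudocounts of 1 and 0.01, no filter, a mean of at least 1 FPKM, median-of-ratios scaling, quantile normalization, no trend, a replicate block, all 9 libraries in a single fit, a GC and length correction (splines with 5 degrees of freedom), voom, and each library left out. Where leaving out a library left 2 against 3, the spread was pooled by limma. Labels and methods differ in siRNA dose, intervals and IFN-γ, and the labels were followed.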

Additional observations from a re-analysis of the deposited data

How the results depend on the processing

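Of the 29 members called with RAB6A siRNA, 24 kept their call under all alternatives, and Pfkl, Ldhb, Pgk1, Ldha and Tpi1 lost it under some. The median over members was 0.20 with quantile normalization and 0.34 with the GC and length correction, with or without the replicate block. With SFRP2 siRNA, voom called 1 member lower, and no other alternative called a member.

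With quantile normalization the RAB6A siRNA log2 fold change turned to -0.36 for Pgk1, -0.12 for Ldha, -0.026 for Pfkfb2, -0.20 for Eno1, 0.11 for Tkt, 0.017 for Gapdh and -0.32 for the second Aldoa identifier, and that of G6pdx with SFRP2 siRNA to 0.013. Eno1 was -0.018 with median-of-ratios scaling. The GC and length correction, alike with the replicate block, gave 0.016 for Tkt, 0.093 for Gapdh and -0.71 for the second Aldoa identifier with RAB6A siRNA, and 0.025 for Aldoa, 0.011 for Eno3, 0.042 for G6pdx, -0.015 for Hif1a, -0.029 for Pdk1 and -0.0054 for Slc16a1 with SFRP2 siRNA. Of these, Pgk1 and Eno1 were called lower with quantile normalization, and the second Aldoa identifier was called lower with the GC and length correction (adjusted p = 0.0423, limma). Other members that did not pass with RAB6A siRNA were also called under some alternatives: Pgam1 lower with quantile normalization (-0.28), and, higher, Hif1a under 3, Taldo1 under 2, Pfkfb2 under 4 and Pgm2 under 7. The cause was not tested. With each library left out in turn, the sign also turned for members that did not pass the test. With RAB6A siRNA these ran from -0.024 to 0.36 (second Aldoa identifier), -0.018 to 0.081 (Eno1), -0.32 to 0.27 (Gapdh), -0.060 to 0.033 (Pgam1) and -0.095 to 0.0029 (Tkt). With SFRP2 siRNA they ran from -0.19 to 0.055 (Eno3), -0.032 to 0.081 (Pdk1), -0.019 to 0.21 (Pfkfb2), -0.11 to 0.037 (Pfkfb3) and -0.11 to 0.027 (Rpia). Share differences from NC, in percentage points, ran from -0.901 to 0.142 (Hk1), -0.334 to 3.46 (Pfkfb3) and -0.246 to 0.184 (Pdk2) with SFRP2 siRNA, and from -0.0826 to 0.4999 (Pdk2) with RAB6A siRNA.

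Same-numbered libraries did not deviate together (correlations of -0.06 to 0.05 with SFRP2 siRNA and -0.01 to 0.03 with RAB6A siRNA). With 3 libraries per group, these values cannot decide whether the numbers pair the libraries. With the replicate block, 18 members rose and 8 fell with RAB6A siRNA, where 4649 of all 12712 genes tested rose and 4454 fell. With SFRP2 siRNA 0 members and 0 of all 12017 genes passed with the block. At an unadjusted p under 0.05 in limma, the block gave 23 members with SFRP2 siRNA, against 18 in the main fit. All genes at that p numbered 2988 with the block and 2220 in the main fit. Depth limits Pdk2 and Ldhb, with 2 to 39 and 2 to 44 reads per library.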
